A study of Mus musculus with 6 samples.

Results

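The Hox genes of the A, B, C and D clusters, together with the Meis and Pbx genes, were followed in LT-HSCs, the long-term repopulating stem cells of the marrow, of dKO and control mice. Genes were taken by name, as those with a probe set carrying that gene's symbol alone: Hoxa to Hoxd, Meis or Pbx, each followed by a number. This gave 39 genes on 63 probe sets, of 18193 genes with such a probe set and 45037 non-control probe sets on the array. There were 9 Hoxa, 9 Hoxb, 7 Hoxc, 8 Hoxd, 3 Meis and 3 Pbx genes. Genes of these families without such a probe set were not analysed here. Where a gene had several probe sets, 16 of the 39, the one with the highest mean over the 6 arrays stood for it, and the others were tested beside it.

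The dKO mice carried MxCre with c-myc f2 and N-myc f2 alleles, and the control mice carried c-myc f2 and N-myc f2 without MxCre. One control label spells the second allele M-Myc f2. All were on a mixed background, were 8 weeks old, and had 2 daily treatments with pI-pC, a synthetic double-stranded RNA that induces interferon, 3 days before the marrow was taken. MxCre is driven by an interferon-responsive promoter that is active in many cell types, so deletion is not limited to stem cells, and both groups had the inducer. Each group had 3 arrays, and each array was a pool of sorted Lin- Sca1+ CD150+ CD48- cells, from 3 mice for dKO and 2 mice for control. The p-values measure the spread between these pools, and the number of arrays limits the precision. Values are deposited RMA expression values on a log2 scale, so that a difference of 1 is a 2-fold change.

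Hox proteins are transcription factors that bind DNA through a homeodomain and give cells positional identity in the embryo. They are encoded in clusters, in which neighbouring genes tend to be active together. Pbx and Meis proteins are homeodomain proteins of the TALE class that bind DNA as partners of Hox proteins and raise their selectivity. In the blood system, genes of the A and B clusters are active in stem and early progenitor cells and are switched off as cells mature. Hoxa9 with Meis1 is known for sustaining stem and progenitor growth and, when kept on, for leukaemia.

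Both deleted genes were lower in the dKO arrays. Myc had values of 7.28, 7.77 and 7.24 in dKO arrays, against 10.40, 10.57 and 10.11 in control arrays (log2 change -2.93, limma adjusted p = 0.00137). Mycn, by probe set 1417155_at, had 3.40, 3.81 and 3.17 in dKO arrays, against 10.80, 10.87 and 10.76 in control arrays, so that its dKO values lay in the range of the array's negative controls. The brightest Mycn probe set, 1425922_a_at, changed by -1.61 (adjusted p = 0.00938), and 1425923_at differed by -0.08. Of all genes, 3.56% passed limma's test at an adjusted p under 0.05 as lower in dKO cells and 4.49% as higher. Of the sort and stem cell markers, 11 of 13 were measured, 3 passed limma's test as lower in dKO cells and 1 as higher. The lower ones were the angiopoietin receptor Tek (log2 difference -2.25), the transcription factor Hlf (-1.66) and the stem cell factor receptor Kit (-0.87). The higher one was Cd48 (1.16, adjusted p = 0.0214), which the sort selects against; with 1 array left out it passed only without dKO replicate 3, and reached 0.0765 otherwise, in the fits without any 1 of the control replicates or without dKO replicate 1 or 2. Slamf1, which encodes CD150, differed by 0.08 (limma adjusted p = 0.855). The Gapdh 3' minus 5' probe set difference, which rises as RNA degrades or is copied from its 3' end, was 2.39 to 2.47 in dKO arrays and 2.12 to 2.36 in control arrays. In bulk samples of this kind, fewer cells of a type and less RNA per cell cannot be told apart.

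Signal was first set against the array's negative controls, the AFFX-TrpnX probe sets, which have no mouse target. Their values on the 6 arrays ran from 2.13 to 3.92. In 26 of the 39 genes both group means lay above that range, in 4 genes 1 of the means did, and in 9 genes neither did. By the mean over all arrays, 71.8% of the 39 were above it, and 85.8% of all 18193 genes were. These controls are few and dim, so a value above them can still be background. A stricter bound was the highest array median, 5.97, which 14 of the 39 exceeded in their mean, beside 56.5% of all genes. These 14 were Hoxa3, Hoxa5, Hoxa7, Hoxa9, Hoxa10, Hoxb3, Hoxb4, Hoxb5, Hoxc9, Meis1, Meis3, Pbx2, Pbx3 and Pbx4, and they are called the brighter genes here. Probe sets differ in how strongly they bind, so these values do not order the genes by transcript amount.

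More genes of the A and B clusters than of the C and D clusters had signal. Of the 9 Hoxa genes, 8 had both group means above the negative controls and 5 were among the brighter genes. Of the 9 Hoxb genes these numbers were 7 and 3, of the 7 Hoxc genes 4 and 1, and of the 8 Hoxd genes 2 and 0. Hoxa9 and Meis1 were well above background: the lowest single value was 9.96 for Hoxa9, in a dKO array, and 10.85 for Meis1, also in a dKO array. The 9 genes with both means in the negative control range were Hoxb1, Hoxc4, Hoxc8, Hoxc13, Hoxd1, Hoxd3, Hoxd10, Hoxd11 and Meis2, with single values from 2.04 to 4.97. The highest of these was 1 control array of Hoxc8, and the other arrays of that gene read from 2.49 to 3.33. In 4 genes 1 group mean lay in that range. Hoxa2 averaged 3.90 in dKO and 4.35 in control arrays, Hoxb6 3.51 in dKO and 4.22 in control arrays, Hoxd8 4.18 in dKO and 3.77 in control arrays, and Hoxd13 4.17 in dKO and 3.64 in control arrays, and none of these 4 passed the test.

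Hoxa3, Hoxb3 and Hoxb5 were lower in dKO cells and no gene of the set was higher. By limma with Benjamini-Hochberg adjustment over 45037 probe sets, they passed an adjusted p of 0.05 (3 of 39) and 0 genes passed as higher. Among the representative probe sets of all 18193 genes, 3.56% were lower and 4.49% were higher at that adjusted p. At an unadjusted p under 0.05, 8 of the 39 were lower and 0 were higher, where the shares over all genes were 10.8% and 12.3%. At the adjusted p, 3 of the 14 brighter genes were lower and 0 higher, against 5.39% lower and 7.25% higher among all genes whose mean exceeded the highest array median. In 9 of the 39 all 3 dKO values lay below the lowest control value, and in 1 all lay above the highest, where the shares over all genes were 14.2% and 15.8%. The median log2 difference was -0.11 over the 39 and -0.27 over the 14 brighter genes, against 0.01 for all genes in each case.

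**Figure D1:**
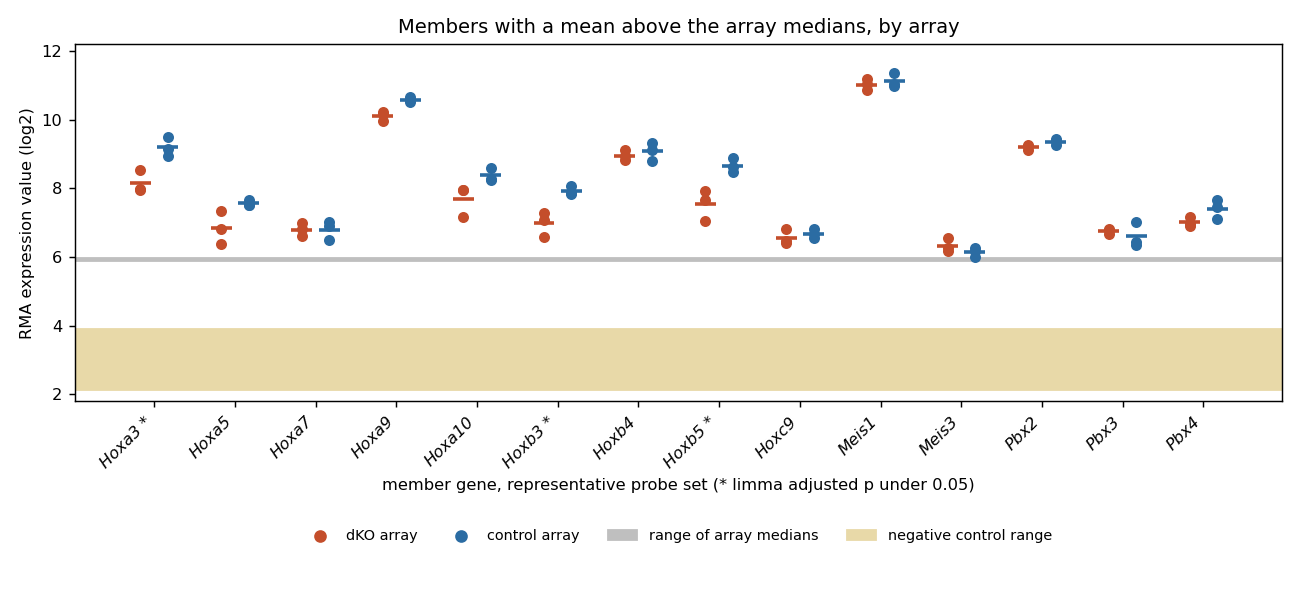
RMA expression values (log2, vertical axis) of the 14 genes with a mean above the array medians, with 3 dKO arrays left and 3 control arrays right for each gene, a bar at each group mean, a grey band for the array medians and a tan band for the negative controls. The dKO and control points do not overlap for Hoxa3, Hoxa5, Hoxa9, Hoxa10, Hoxb3 and Hoxb5, and they overlap for the other 8 genes.

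Hoxa3, a group 3 Hox gene known for its part in forming the thymus and parathyroid, had values of 8.53, 7.98 and 7.95 in dKO arrays, against 9.15, 8.95 and 9.50 in control arrays. Every dKO value was below every control value. The mean was 8.15 ± 0.33 in dKO and 9.20 ± 0.28 in control arrays (SD, n = 3 each), a log2 change of -1.05 ± 0.22 (SE, limma adjusted p = 0.0353), or 2.07-fold lower in dKO. Another Hoxa3 probe set, 1427433_s_at, fell by 1.54 (adjusted p = 0.0135). Probe set 1431392_at differed by -1.10 with overlapping groups (adjusted p = 0.237), and the dimmest, 1429398_at, by 0.09 (adjusted p = 0.857), so 1 of the 4 showed no lower value.

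Hoxb3, the paralogue of Hoxa3 in the B cluster, had 7.06, 6.59 and 7.27 in dKO arrays, against 7.85, 8.06 and 7.85 in control arrays. The groups did not overlap, and the means were 6.98 ± 0.35 in dKO and 7.92 ± 0.12 in control arrays (SD, n = 3 each). The log2 change was -0.94 ± 0.20 (SE, limma adjusted p = 0.0357), 1.92-fold lower in dKO. Its other probe set, 1427605_at, gave -1.02 ± 0.23 (SE, adjusted p = 0.0420), so both Hoxb3 probe sets were called.

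Hoxb5, known as a marker that enriches for long-term stem cells in mouse marrow, had 7.04, 7.66 and 7.92 in dKO arrays, against 8.87, 8.46 and 8.61 in control arrays. All dKO values were below all control values, with means of 7.54 ± 0.45 in dKO and 8.65 ± 0.21 in control arrays (SD, n = 3 each). The log2 change was -1.10 ± 0.24 (SE, limma adjusted p = 0.0416), 2.15-fold lower in dKO. It has 1 probe set, so no second one bears on it.

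The 3 calls lie near the threshold. With 1 array left out, Hoxa3 passed only without dKO replicate 1 (adjusted p = 0.0394) and otherwise had an adjusted p of up to 0.111, in the fits without any 1 of the control replicates or without dKO replicate 2 or 3. Hoxb3 and Hoxb5 passed only without dKO replicate 3 (0.0459 and 0.0478) and otherwise reached 0.109 and 0.115, in the fits without any 1 of the control replicates or without dKO replicate 1 or 2. Across those fits the log2 change stayed between -1.24 and -0.90 for Hoxa3, between -1.09 and -0.75 for Hoxb3, and between -1.29 and -0.85 for Hoxb5.

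**Figure D2:**
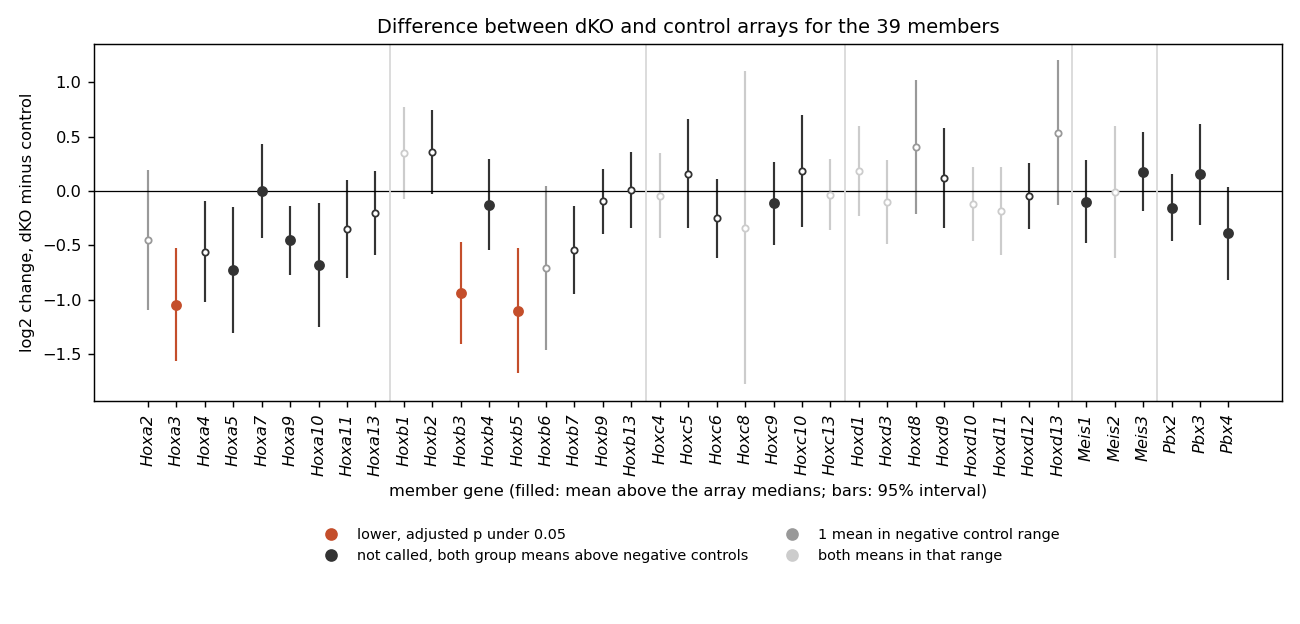
Log2 change, dKO minus control (vertical axis, bars are 95% intervals from limma), for the 39 genes in cluster order, with Hoxa, Hoxb, Hoxc, Hoxd, Meis and Pbx separated by lines. Hoxa3, Hoxb3 and Hoxb5 (red) lie near -1, and the Hoxd, Meis and Pbx genes lie between -0.39 and 0.54; filled points have a mean above the array medians.

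The promoter windows are shown for 4 genes that the results turn on: Hoxa3, the called gene with a window in the table used, and Hoxa9, Hoxb4 and Meis1, which did not pass. RefSeq windows (GRCm38.p6) run from 250 bases before to 50 bases after the gene's start, and 24 of the 39 genes had 1 or more. They were searched on both strands for CACGTG, the E-box to which Myc-Max pairs bind, for TGACAG, the core of Meis and Pknox sites, and for TGATNNAT, a Pbx-Hox composite. Capitals mark a match, and the motifs do not overlap there.
Hoxa3 (chr6:52213018-52213317, minus strand): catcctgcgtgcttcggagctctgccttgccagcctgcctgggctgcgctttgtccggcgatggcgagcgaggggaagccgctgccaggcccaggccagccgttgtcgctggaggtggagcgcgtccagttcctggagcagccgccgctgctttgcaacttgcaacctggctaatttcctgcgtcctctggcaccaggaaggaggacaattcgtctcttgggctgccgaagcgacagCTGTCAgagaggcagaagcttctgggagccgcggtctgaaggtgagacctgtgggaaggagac
Hoxa9 (chr6:52227321-52227620, minus strand): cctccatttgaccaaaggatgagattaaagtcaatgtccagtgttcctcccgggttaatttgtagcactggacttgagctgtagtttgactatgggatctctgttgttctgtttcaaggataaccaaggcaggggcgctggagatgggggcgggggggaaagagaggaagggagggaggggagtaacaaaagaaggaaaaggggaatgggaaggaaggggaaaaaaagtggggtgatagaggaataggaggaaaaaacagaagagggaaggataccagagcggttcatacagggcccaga
Hoxb4 (chr11:96318017-96318316, plus strand): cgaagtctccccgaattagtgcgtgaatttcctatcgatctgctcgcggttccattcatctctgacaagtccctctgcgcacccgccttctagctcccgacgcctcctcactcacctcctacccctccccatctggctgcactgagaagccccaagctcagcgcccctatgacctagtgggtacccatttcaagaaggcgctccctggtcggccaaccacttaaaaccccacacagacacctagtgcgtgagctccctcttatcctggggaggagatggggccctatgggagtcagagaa
Meis1 (chr11:19018920-19019219, minus strand): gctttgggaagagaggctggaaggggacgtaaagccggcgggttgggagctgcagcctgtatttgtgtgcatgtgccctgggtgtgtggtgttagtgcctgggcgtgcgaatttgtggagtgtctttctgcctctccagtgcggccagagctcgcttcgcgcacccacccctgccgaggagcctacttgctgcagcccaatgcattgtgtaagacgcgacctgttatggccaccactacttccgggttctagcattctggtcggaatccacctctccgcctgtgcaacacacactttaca

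The 1 match in these windows was in Hoxa3, a Meis and Pknox core on the other strand, 13 bases upstream of the start. The annotated span of Hoxa3 also holds Hoxa4, Hoxa5 and Hoxa6. Whether the Hoxa3 probe sets read a transcript from this start was not tested. The Meis and Pknox core was found in 2 of the 26 windows of the set, those of Hoxa2 and Hoxa3, and in 19.2% of all 32851 windows. The E-box was found in 4 of the 26 windows of the set, those of Hoxd1, Hoxd10, Hoxd11 and Hoxd13, and in 7.15% of all windows. Of these 4 genes, Hoxd1, Hoxd10 and Hoxd11 read in the negative control range in both groups. The composite was found in 3 windows, of Hoxa2, Hoxb1 and Hoxd11, and in 8.85% of all. A match is a run of letters and not a shown binding site, and other parts of the genes were not searched.

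The remaining brighter Hoxa genes had lower values that did not pass the test, with 1 exception. Hoxa9, the partner of Meis1 in stem and leukaemic cells, had 9.96, 10.17 and 10.22 in dKO arrays, against 10.56, 10.51 and 10.65 in control arrays. The groups did not overlap, but the log2 difference of -0.46 (95% interval -0.77 to -0.14) had an adjusted p of 0.1003. With a trended robust variance prior in limma, the Hoxa9 adjusted p was 0.0246, the only alternative in which it passed. Its second probe set gave -0.39 with overlapping groups (adjusted p = 0.293).

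Hoxa10, the neighbour of Hoxa9 and a regulator of myeloid and megakaryocytic growth, had 7.17, 7.96 and 7.94 in dKO arrays, against 8.25, 8.27 and 8.60 in control arrays (log2 difference -0.68, adjusted p = 0.155). Hoxa5, which acts in lung and skeletal patterning, had 6.37, 6.81 and 7.35 in dKO arrays, against 7.52, 7.67 and 7.53 in control arrays (-0.73, adjusted p = 0.139). By these probe sets the dKO arrays of both genes were all below the controls, and dKO replicate 1 was the lowest of the 6. The second Hoxa5 probe set, 1443803_x_at, gave -0.29 with overlapping groups (adjusted p = 0.449). Hoxa7 read 6.99, 6.80 and 6.61 in dKO arrays, against 6.89, 6.49 and 7.01 in control arrays, with overlapping groups (95% interval of the difference -0.44 to 0.43, adjusted p = 0.998).

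In the B cluster, Hoxb4 lies between Hoxb3 and Hoxb5 and did not pass. This gene, known for expanding stem cells when overexpressed, had 8.81, 9.11 and 8.94 in dKO arrays, against 9.33, 8.80 and 9.12 in control arrays. The groups overlapped, with a log2 difference of -0.13 (95% interval -0.55 to 0.29, adjusted p = 0.748), and its second probe set gave 0.14 (adjusted p = 0.881). In RefSeq's annotation (GRCm38.p6) Hoxb4 lies inside the annotated span of Hoxb3, and Hoxa4, Hoxa5 and Hoxa6 lie inside that of Hoxa3, so transcripts of these genes may share sequence and be read by each other's probes.

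Differences between probe sets on the same array were compared between groups, since only their change can be read. The Hoxb3 signal minus the Hoxb4 signal was -1.74, -2.52 and -1.67 in dKO arrays, against -1.48, -0.74 and -1.27 in control arrays. For Hoxb5 minus Hoxb4 it was -1.77, -1.45 and -1.02 in dKO arrays, against -0.46, -0.33 and -0.51 in control arrays. For Hoxa3 minus Hoxa7 it was 1.54, 1.18 and 1.34 in dKO arrays, against 2.26, 2.45 and 2.49 in control arrays. The changes, dKO minus control, were -0.82, -0.98 and -1.05. Each pair was chosen after the values were seen, as a called gene beside one that was not called, so these differences are a description and carry no test.

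Hoxc9, the only brighter gene of the C cluster, differed by -0.11 (95% interval -0.49 to 0.27), with 6.81, 6.48 and 6.40 in dKO arrays, against 6.55, 6.82 and 6.66 in control arrays. The 25 dimmer genes had log2 differences from -0.71 to 0.54 and none passed (adjusted p from 0.117). Among the 12 of these with both means above the negative controls, Hoxa4 (-0.56), Hoxb7 (-0.54) and Hoxc6 (-0.25) had all dKO values below all control values, and Hoxb2 (0.36) had all of them above. The other Hoxc6 probe sets, 1427361_at and 1427362_x_at, differed the other way, by 0.23 and 0.30, with overlapping groups. The groups overlapped for Hoxa11 (-0.35), Hoxa13 (-0.21), Hoxb9 (-0.10), Hoxb13 (0.01), Hoxc5 (0.16), Hoxc10 (0.18), Hoxd9 (0.12) and Hoxd12 (-0.05). Hoxb6, whose dKO mean of 3.51 lay in the negative control range, was called lower only in the fit without control replicate 1 (-1.09, adjusted p = 0.0332). By position in the cluster, the median log2 difference was -0.12 for genes numbered 1 to 4, -0.34 for 5 to 8 and -0.11 for 9 to 13, with 2, 1 and 0 genes called lower. These medians include genes at background, and over the 3 brighter genes of each block they were -0.94, -0.73 and -0.46.

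The TALE partners showed no called change. Meis1, which stabilises Hoxa9 and Pbx proteins on DNA, had 11.18, 10.85 and 11.03 in dKO arrays, against 11.04, 10.97 and 11.34 in control arrays. The groups overlapped and the log2 difference was -0.10 (95% interval -0.48 to 0.29, adjusted p = 0.796). Of its other probe sets, 1450992_a_at differed by -0.05 and 1443260_at by -0.46. Probe set 1443260_at read 9.19, 9.12 and 9.004 in dKO arrays, against 9.29, 9.65 and 9.76 in control arrays, without overlap, and did not pass (adjusted p = 0.156). Meis3 had 6.54, 6.17 and 6.26 in dKO arrays, against 6.01, 6.26 and 6.16 in control arrays (0.18, adjusted p = 0.579), and all 4 Meis2 probe sets averaged in the negative control range in both groups.

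Among the Pbx genes, Pbx2 had 9.24, 9.26 and 9.11 in dKO arrays, against 9.45, 9.38 and 9.25 in control arrays (-0.15, 95% interval -0.46 to 0.15). Its other probe sets differed in sign, with 0.33 for 1418893_at and -0.10 for 1449261_at. Pbx4 had 7.18, 6.90 and 6.96 in dKO arrays, against 7.46, 7.10 and 7.65 in control arrays (-0.39, 95% interval -0.82 to 0.03). The second Pbx4 probe set, 1449916_at, differed by -0.06 (limma adjusted p = 0.897). In each the groups overlapped. Pbx3 had 6.81, 6.68 and 6.78 in dKO arrays, against 6.45, 6.34 and 7.01 in control arrays (0.15, adjusted p = 0.727).

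The second Pbx3 probe set, 1447640_s_at, gave another picture, with 6.58, 6.66 and 6.46 in dKO arrays, against 4.785, 6.23 and 4.22 in control arrays. Its log2 difference was 1.49 ± 0.46 (SE), its groups did not overlap, and it did not pass (adjusted p = 0.112). Its control values were spread over a wider range than its dKO values.

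**Figure D3:**
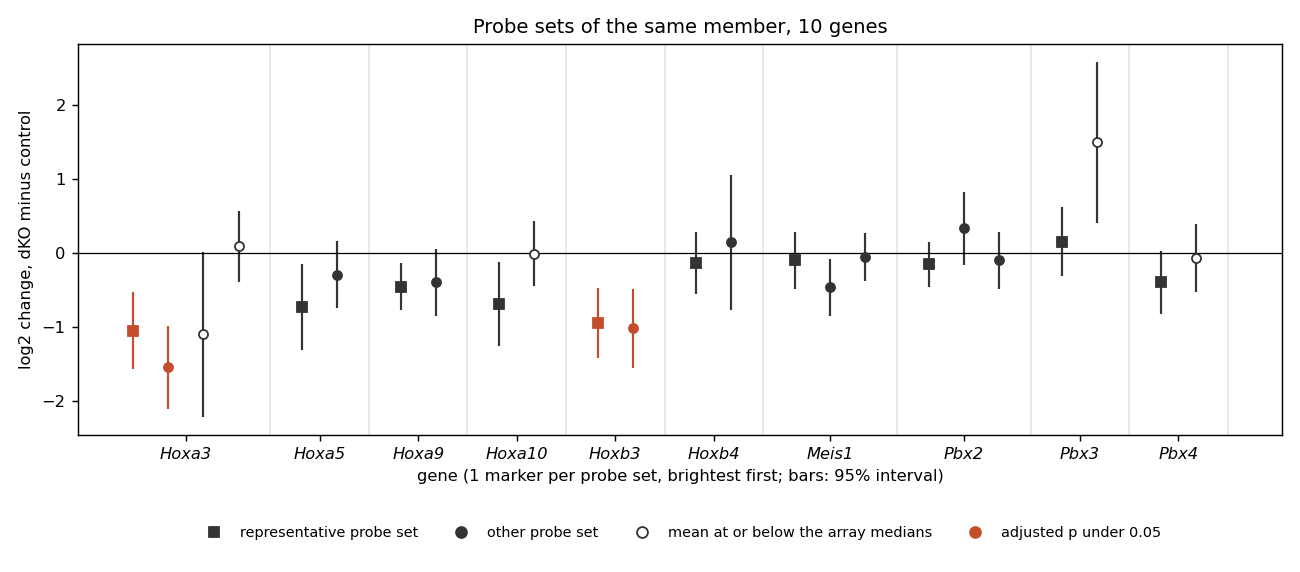
Log2 change, dKO minus control (vertical axis, bars are 95% intervals), of every probe set of 10 genes, squares for the representative probe set and circles for the others, open where the mean is at or below the array medians. Both Hoxb3 and 2 of 4 Hoxa3 probe sets are called lower (red), and the second Pbx3 probe set stands at 1.49 while the first is at 0.15.

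Over all 63 probe sets of the 39 genes, 5 were called lower (2 of Hoxa3, 2 of Hoxb3 and 1 of Hoxb5) and 0 higher by limma's adjusted p, where the shares among all 45037 probe sets were 3.41% and 3.57%. At an unadjusted p under 0.05, 11 of the 63 were lower and 2 higher, where those shares were 11.3% and 10.4%. Probe sets of a gene share its transcript and are not independent.

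Genes that set Hox expression were next examined. The MLL proteins keep Hox genes on through histone methylation, and Polycomb proteins keep them off. On the MLL side, a list that also held Kdm6a, Kdm6b, Cdx1, Cdx2, Cdx4, Npm1, Nup98 and Xpo1, 1 of 21 genes fell and none rose by limma's adjusted p. The shares over all genes were 3.56% and 4.49%. At an unadjusted p under 0.05, 5 were lower: Kmt2a (-0.59), Npm1 (-0.56), Mllt10 (-0.50), Kmt2b (-0.46) and Mllt3. The 3 higher were Nup98 (0.46), Kdm6a (0.44) and Xpo1 (0.44). At that unadjusted p, 10.8% of all genes were lower and 12.3% higher. The list median was 0.04, with Cdx1 and Cdx4 in the negative control range in both groups. The gene that passed was Mllt3, a reader of acylated histones in the elongation complex, with 10.56 ± 0.16 in dKO and 11.32 ± 0.07 in control arrays (SD, n = 3 each), a change of -0.76 ± 0.14 (SE, limma adjusted p = 0.0236). Its call held only without dKO replicate 3 (0.0494) when 1 array was left out and reached 0.0778 otherwise, in the fits without any 1 of the control replicates or without dKO replicate 1 or 2. Of 21 measured Polycomb-side genes none passed limma's test (median 0.01), and at an unadjusted p under 0.05 there were 2 lower and 2 higher, the higher ones being Gmnn (0.61) and Bmi1 (0.48), named because they make up that count. The 2 with the smallest p were Cbx7 (-0.56, adjusted p = 0.0564), a chromodomain subunit, and Ezh1 (-0.71, adjusted p = 0.170), a histone methyltransferase.

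Of 11 other measured TALE homeobox genes, 1 fell and 0 rose, with 1 higher at an unadjusted p under 0.05 (median -0.07). In 3 of the 11, Irx4, Irx5 and Mkx, both group means lay in the negative control range. Tgif2, a repressor that acts in TGF-beta signalling, had 6.94 ± 0.24 in dKO and 8.37 ± 0.11 in control arrays (SD, n = 3 each), a change of -1.43 ± 0.16 (SE, limma adjusted p = 0.00551). It passed with any 1 array left out, at an adjusted p of up to 0.0268. Of 9 measured Pbx and Meis cofactors, 1 rose and 0 fell, with 0 lower at an unadjusted p under 0.05 (median 0.08). This was the histone deacetylase Hdac1, with 9.81 in dKO and 8.87 in control arrays, a change of 0.95 ± 0.12 (SE, adjusted p = 0.00802).

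Of 24 genes reported elsewhere as targets of Hoxa9 or Meis1, 1 fell and 5 rose, and the other 18 were not called (median 0.14). Over all genes 3.56% were lower and 4.49% higher at a limma adjusted p under 0.05. At an unadjusted p under 0.05, 3 of the 24 were lower and 8 higher, beside 10.8% and 12.3% of all genes. Id2, an inhibitor of basic helix-loop-helix factors, rose by 2.94 ± 0.17 (SE, log2), with 8.36 in dKO and 5.41 in control arrays. The survival factor Bcl2 rose by 1.17, the kinase Pim1 by 0.91, the chaperone Dnajc10 by 0.90 and the platelet chemokine Pf4 by 1.11. Hlf fell by 1.66 ± 0.28 (SE, adjusted p = 0.0178). Dnajc10 lost its call without control replicate 1 or 2 and without dKO replicate 1 or 2 (adjusted p up to 0.0563), Hlf in the fits lacking control replicate 1 or 3 (up to 0.0584), and Pf4 without any 1 of the control replicates or without dKO replicate 1 or 3 (up to 0.0732). Flt3 and Myb, often studied targets named here after their values were seen, differed by -0.37 (adjusted p = 0.371) and 0.10 (adjusted p = 0.718).

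**Figure D4:**
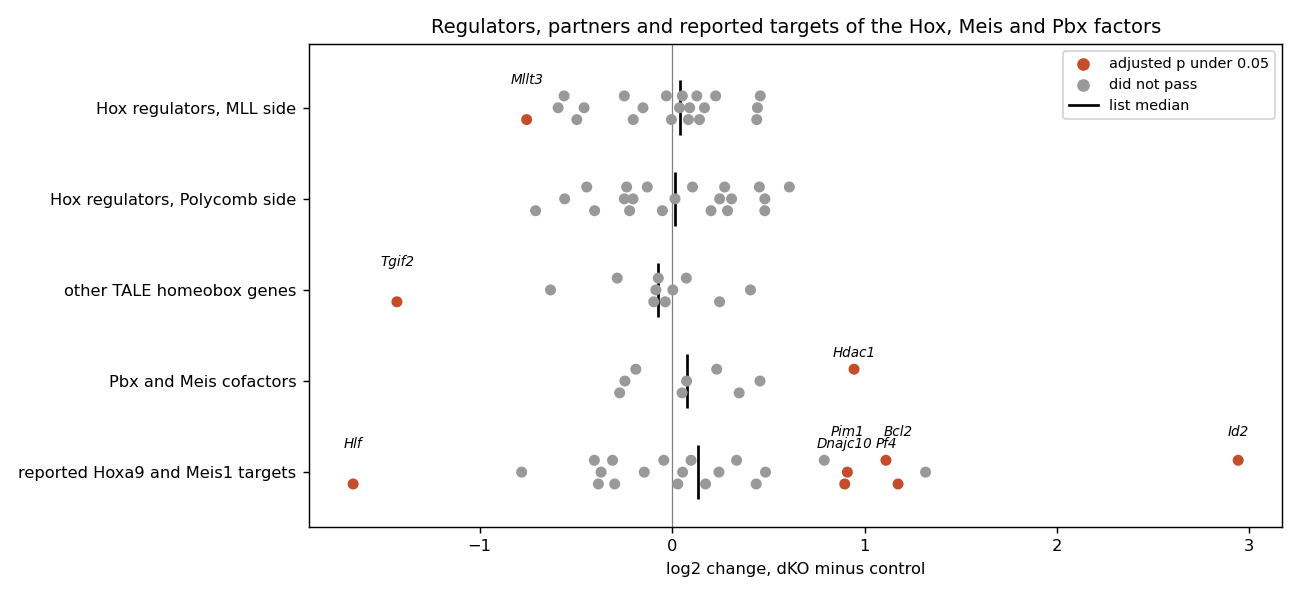
Log2 change, dKO minus control (horizontal axis), of each measured gene in 5 lists of regulators, partners and reported targets, 1 point per gene, with a black line at the list median and genes past an adjusted p of 0.05 in red with their names. The medians lie between -0.07 and 0.14, and the called genes number 3 lower and 6 higher.

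Genes that mark other cell types were also compared. Over all genes, 3.56% were lower and 4.49% higher at a limma adjusted p under 0.05. At an unadjusted p under 0.05 these shares were 10.8% and 12.3%. Of 7 megakaryocyte and platelet genes, 3 rose (Ppbp by 5.67, Itga2b by 1.16 and Pf4 by 1.11, log2) and 1 fell (Vwf, -1.04), and the mean log2 value of the list was 8.88 to 9.22 in dKO arrays and 7.84 to 8.13 in control arrays. For T and NK cells, Nkg7 rose by 2.57, as 1 of 8 measured genes (list mean 6.16 to 6.45 in dKO arrays and 5.76 to 5.87 in control arrays), and Ncr1 averaged in the negative control range in both groups. For macrophages, C1qb rose by 1.79, as 1 of 7 genes (list mean 5.42 to 5.62 in dKO arrays and 5.02 to 5.25 in control arrays). At limma's unadjusted p under 0.05, 1 of these 7 was lower and 2 were higher. The lower one was Adgre1 (-0.46), whose dKO mean lay in the negative control range.

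Of 5 measured erythroid genes 1 fell, Klf1 by 1.64 (list mean 5.21 to 5.66 in dKO arrays and 5.69 to 5.94 in control arrays), and Hba-a1 averaged in the negative control range in both groups. No granulocyte gene of 9 passed limma's test, with 2 lower at an unadjusted p under 0.05 (list mean 5.29 to 6.63 in dKO arrays and 6.15 to 7.31 in control arrays), and no B cell gene of 5 passed, with 0 at an unadjusted p under 0.05 (list mean 5.64 to 6.51 in dKO arrays and 5.81 to 6.33 in control arrays). Vwf lost its call without control replicate 2 or dKO replicate 1 or 3 (adjusted p up to 0.0585), and C1qb when either control replicate 1 or a single dKO replicate was left out (up to 0.0693). The part of these cell types and of RNA quality in the lower Hoxa3, Hoxb3 and Hoxb5 values was not tested.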

How the data were processed

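Expression was measured on 6 arrays, grouped and numbered by the sample titles. The deposited values are on a log2 scale, judged from their range, and the authors made them with RMA, per the submitters' processing notes. RMA's version and the build behind the probe sets were not given in the sources used here. RMA scales arrays to each other, so changes are relative, and 2 rounds of amplification, per the labels' protocols, can alter relative levels.

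Tests covered 45037 probe sets, leaving out 64 array controls. The platform annotation gave 34945 a single symbol. limma 3.58.1 (lmFit and eBayes, R 4.3.3) was fitted without covariates, and p-values were adjusted by Benjamini-Hochberg with a threshold of 0.05. All adjusted p-values are limma's. The fit was tested on simulated data. The genes, lists and markers were chosen with earlier results of these data known. Named were all genes of the set with a group mean above the negative controls, with array values for called genes, Hoxa9, Meis1 and the 10 brightest (the other brighter genes were added), up to 6 called genes of each list or else the 2 with the smallest p, and moving marker genes. Alternatives were median centring, quantile normalization, a level filter, a trended robust prior, array weights, a replicate block, averaging of probe sets, other background bounds, and leaving out each array.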

Additional observations from a re-analysis of the deposited data

How the results depend on the processing

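Hoxa3, Hoxb3 and Hoxb5 kept a negative difference under all 14 alternatives run for each. The count of genes called lower, 3 of 39, was 2 with median centring, where Hoxb5 missed (adjusted p = 0.0530), 4 with the trended robust prior, where Hoxa9 was added, and 3 with array weights, the level filter, quantile normalization or averaged probe sets. With 1 array left out, in fits of fewer samples, it ranged from 0 to 2, and the 1 gene without control replicate 1 was Hoxb6. None was called higher in any setting. Of the pathway genes, 3 were lower and 6 higher. With the trended robust prior 6 were lower and 8 higher, and 1 to 3 were lower and 4 to 5 higher with 1 array left out. The cause of these differences was not tested.

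The labels tie no control replicate to the dKO replicate of that number. The deviations of same-numbered arrays had correlations of -0.016, 0.002 and 0.013. These are taken over all probe sets and cannot exclude a shared batch that alters some of them. With the replicate block, 0 of the 39 genes were called lower (adjusted p = 0.0734 for Hoxa3, 0.0899 for Hoxb3 and 0.0960 for Hoxb5), and 1 pathway gene was called lower and 5 higher. Myc and the brightest Mycn probe set passed in every setting run.

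The number of genes with both means above background was 26 by the highest negative control (26 to 28 with 1 array left out), 19 by the negative control mean plus 3 SD, and 14 by the highest array median. Signal near the negative controls limits what can be read in dim genes.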

Other observations

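Antisense genes of the Hox clusters have probe sets of their own. Hoxb5os had values of 6.37, 6.24 and 8.51 in dKO arrays, against 8.01, 6.60 and 6.76 in control arrays, spread widely within both groups (log2 difference -0.08, limma adjusted p = 0.961). The 2 Hoxa11os and 2 Hoxd3os1 probe sets averaged in the negative control range in both groups.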
